A study of Mus musculus with 21 samples.

Results

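The genes described here were 40 genes of glycolysis and of the transcriptional response to low oxygen, taken by name from a list: 2 glucose transporters, 10 genes of upper glycolysis, 7 of lower glycolysis, 4 lactate dehydrogenases and monocarboxylate transporters, 4 pyruvate dehydrogenase kinases, 4 subunits of the hypoxia-inducible factors (HIF), 2 HIF prolyl hydroxylases and 7 other HIF target genes. All 40 were found in both expression tables, one with values for 19321 genes and the other with 27968. The study derived hematopoietic cells from mouse pluripotent stem cells, labelled 129/ola in every sample, which were grown in a peptide gel (3D) and then reseeded either on OP9, a mouse stromal line treated with mitomycin C, or on a coating of 0.1% gelatin. RNA-seq covered 21 libraries, 3 in each of 7 groups. Total cells on day 5 of these cultures gave the groups 3D+OP9 and 3D+0.1%gel. From the OP9 coculture on day 5, lineage-negative Sca-1+ c-Kit+ (LSK) cells were sorted by CD201, the endothelial protein C receptor encoded by Procr, into D5-LSKCD201+ and D5-LSKCD201-. The undifferentiated cells (mESC) were sorted for SSEA-1. The natural references were LSKCD201+ cells of bone marrow from young adult mice (BM-LSKCD201+) and of fetal liver from midgestation embryos (FL-LSKCD201+), both of the C57BL/6 strain, so strain and tissue cannot be told apart wherever cells labelled 129/ola were compared with them. The methods of the study name embryonic stem cells of both strains, and the strain here is that of the labels.

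Glycolysis splits glucose into pyruvate. Glucose enters through transporters, hexokinases trap it, phosphofructokinases commit it, and the lower enzymes yield ATP, after which pyruvate is reduced to lactate and exported, or passed to the mitochondria unless pyruvate dehydrogenase kinases close that gate. When oxygen is low, prolyl hydroxylases stop marking HIF alpha subunits for destruction, and the subunits pair with ARNT and bind short DNA cores near genes for glycolysis, mitophagy, collagen hydroxylation and stress signalling. Hematopoietic stem cells of the bone marrow are known for glycolytic metabolism. Messenger RNA measures neither oxygen nor flux.

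Values were FPKM, fragments scaled to transcript length and to the mapped fragments of the library, so levels could be set side by side between genes within a table. FPKM summed to between 483263 and 620332 per library, and the read depth behind them is unknown. The sorted-cell and total-cell tables were normalized separately, and no test was made across them. The sort marker Procr was at 59.7 ± 2.03 FPKM in D5-LSKCD201+ against 3.48 ± 0.411 in D5-LSKCD201- (SD, n = 3 each). Ptprc, the pan-leukocyte marker CD45, was near 0 in both (0.409 ± 0.167 and 0.633 ± 0.269 FPKM) against 43.5 ± 7.54 in FL-LSKCD201+ and 66.8 ± 4.21 in BM-LSKCD201+. Replicate 2 of D5-LSKCD201-, replicate 1 of FL-LSKCD201+, replicate 1 of BM-LSKCD201+ and replicate 3 of 3D+OP9 stood apart from the 2 other libraries of their groups. In those groups the SD of the log2 difference over all genes was 0.138 to 0.168 within the closest pair and 0.333 to 0.453 for the other pairs. The study speaks of biological replicates for the sorted groups, including mESC and the natural cells, and its legends to expression data of the cultured cells name independent experiments. Whether the replicates of mESC and the natural cells were separate cultures or animals is not said in the sources used here. For these groups it is therefore unknown what the spread between libraries, which p-values measure, covers.

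HIF binds the core ACGTG or GCGTG. These letters were searched on both strands in RefSeq promoter windows of GRCm38.p6, 300 bases each (250 before and 50 from the start), which were matched for 36 of the 40 genes. The palindrome CACGTG holds the ACGTG core on each strand and counted for both. Either core was present for 33 of 36 genes (91.7%), against 46.7% of all 27025 genes with a window, and the ACGTG core for 24 of 36 (66.7%), against 21.8% of all. Some genes had several windows, 50 in all for these 36 genes, which gives more chances of a match. The number of windows per gene was not compared with that of all genes. Either core also holds the letters CG, and the background was not matched for CG content or for expression level. The shares therefore do not show an excess of HIF cores beyond CG content. A match describes the letters and is not a site of binding. The stretches below run 5' to 3' on the gene's strand, hold every core of the window in capitals, and are shown for genes with large differences between the sorted groups. Cores on the opposite strand read CACGT or CACGC. Against mESC, the first 5 genes were higher and Ldhb lower in D5-LSKCD201+.
Ankrd37, chr8:45999840-46000100, minus strand: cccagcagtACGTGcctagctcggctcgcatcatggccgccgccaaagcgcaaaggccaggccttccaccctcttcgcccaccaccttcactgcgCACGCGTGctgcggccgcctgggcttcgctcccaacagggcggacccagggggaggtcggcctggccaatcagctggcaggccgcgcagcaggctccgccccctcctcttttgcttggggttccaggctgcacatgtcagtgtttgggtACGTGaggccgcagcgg
P4ha1, chr10:59323121-59323296, plus strand: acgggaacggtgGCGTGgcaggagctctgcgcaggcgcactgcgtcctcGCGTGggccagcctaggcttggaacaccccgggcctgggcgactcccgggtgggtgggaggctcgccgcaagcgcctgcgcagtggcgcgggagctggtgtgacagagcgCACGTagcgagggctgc
Bnip3, chr7:138909525-138909635, minus strand: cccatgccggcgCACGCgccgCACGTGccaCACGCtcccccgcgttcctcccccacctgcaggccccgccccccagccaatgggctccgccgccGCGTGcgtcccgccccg
Slc16a3, chr11:120949028-120949069, plus strand: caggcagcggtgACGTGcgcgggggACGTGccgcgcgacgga
Pgk1, chrX:106186938-106186985, plus strand: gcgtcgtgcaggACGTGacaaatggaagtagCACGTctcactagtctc
Ldhb, chr6:142508067-142508095, minus strand: gcgggggagagcGCGTGcacactccagcc
Bnip3 held 5 cores in its stretch. Slc16a3 and Pgk1 held 2 each, and in these 2 genes both were ACGTG on one or the other strand. Ldhb held a single GCGTG. Windows with many cores were also found elsewhere, with 7 for Ldha and 5 for Slc16a1, 2 genes that differed in opposite directions between D5-LSKCD201+ and mESC.

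The 40 genes together took the largest share of the summed FPKM in D5-LSKCD201- (3.10% to 3.34% over the 3 libraries), then in D5-LSKCD201+ (2.24% to 2.35%), mESC (1.66% to 1.71%), FL-LSKCD201+ (0.877% to 1.23%) and BM-LSKCD201+ (0.735% to 0.755%). No library of one group overlapped with another in this sum. By group mean, 20 of the 40 genes were highest in D5-LSKCD201-, from the transporter Slc2a3 through most glycolytic enzymes to Ldha. Another 11 were highest in D5-LSKCD201+, among them Epas1, Egln3, Ankrd37, P4ha1 and Pfkfb3. Over 14457 genes of the sorted-cell table above the limit on weak genes (0.5 FPKM), 13.3% were highest in D5-LSKCD201- and 16.8% in D5-LSKCD201+. BM-LSKCD201+ was highest for 5 genes (Hk1, Pfkm, Eno2, Pdk2 and Ndrg1), against 33.9% of all genes, and it was lowest for 14, against 26.0% of all genes. FL-LSKCD201+ was lowest for 12, against 12.2%, mESC for 9, against 28.9%, D5-LSKCD201+ for 3, against 24.5%, and D5-LSKCD201- for 2, against 8.35%. FL-LSKCD201+ was highest for Pdk3 and Hif3a and mESC for Pdk1 and Arnt, against 13.5% and 22.5% of all genes.

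**Figure D1:**
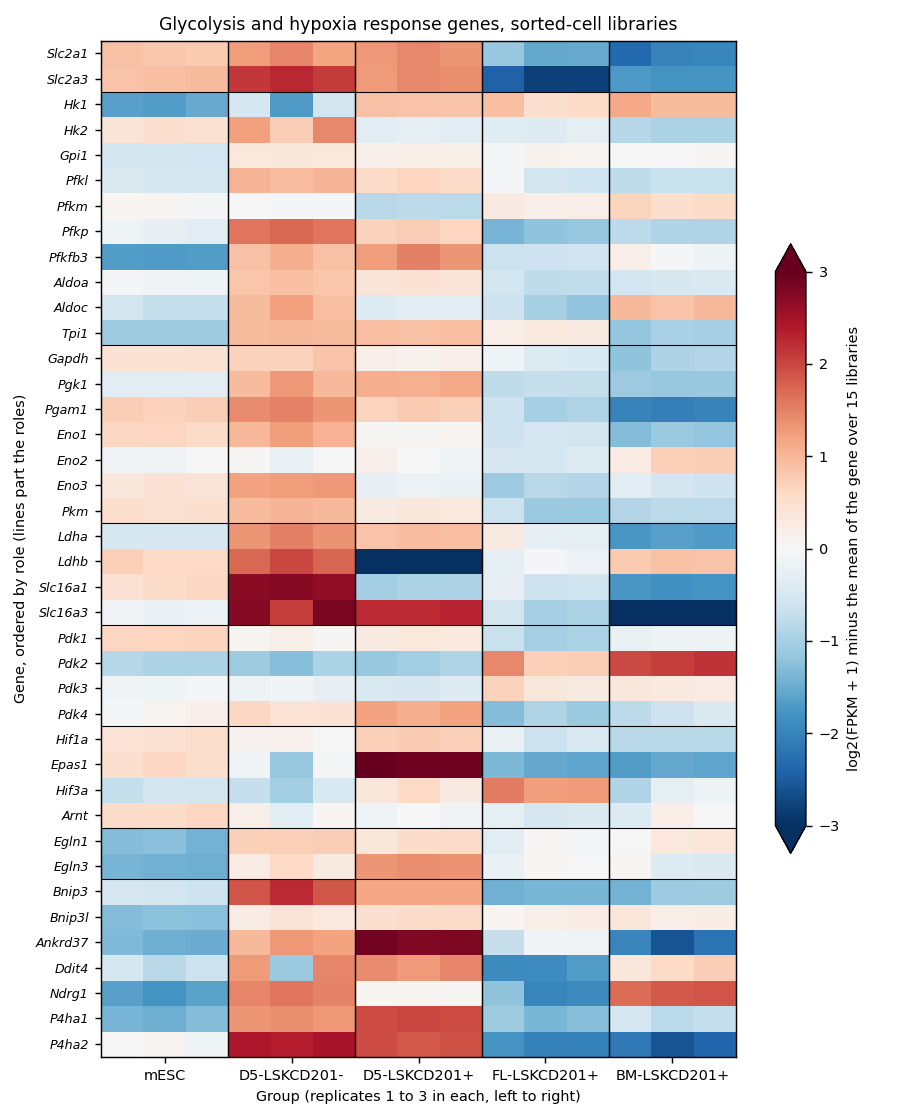
Each row is one of the 40 genes and each column one of the 15 sorted-cell libraries, with color giving log2(FPKM + 1) minus the gene's mean over the 15 libraries. Genes of glucose entry, lactate export and the HIF targets were mostly above their mean in D5-LSKCD201- and D5-LSKCD201+, while Ldhb and Slc16a1 parted these fractions and replicate 2 of D5-LSKCD201- was low in Hk1, Epas1 and Ddit4.

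D5-LSKCD201+ cells were first compared with mESC, the undifferentiated cells, which carry the same strain label. Of the 40 genes, 19 were higher and 2 lower, against 19.5% and 18.1% of all 13441 genes tested. A gene was called with a Benjamini-Hochberg adjusted p under 0.05 in limma's two-sided test and a log2 fold change, up or down, no smaller than 1 on the log2(FPKM + 1) scale, which understates the change of weak genes. The median log2 fold change was 0.83 over the 40 genes and -0.07 over all genes tested. All 7 other HIF target genes and both prolyl hydroxylases were higher, whereas lower glycolysis gave 1 higher gene of 7. Markers of cell types moved in the same comparison. Of the 10 tested in each list, 10 endothelial and 8 stromal markers were higher, and 10 naive pluripotency and 4 proliferation markers were lower, with medians of 6.38, 2.42, -5.79 and -0.85 on the log2 scale. Their part in the differences was not tested.

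Ankrd37, an ankyrin repeat protein induced by hypoxia (chr8:45996902-46005707, GRCm38), was at 132, 121 and 125 FPKM in the 3 D5-LSKCD201+ libraries and at 6.10, 5.53 and 5.39 in mESC. The log2 fold change was 4.25 ± 0.06 (SE, adjusted p = 2.6e-11), the largest of the 40. P4ha1, a subunit of the enzyme that hydroxylates collagen, was at 103, 107 and 103 FPKM against 9.22, 8.78 and 9.93. Its log2 fold change was 3.35 ± 0.05 (adjusted p = 5.2e-11), and that of P4ha2, the related subunit, was 1.91 ± 0.07. The mitophagy receptors Bnip3 (182 ± 1.08 against 54.5 ± 2.10 FPKM) and Bnip3l (121 ± 4.31 against 33.9 ± 0.837) were higher by 1.73 ± 0.04 and 1.80 ± 0.04. Ddit4, an inhibitor of mTOR signalling, and Ndrg1, a stress response gene, were higher by 2.04 ± 0.09 and 1.73 ± 0.07. None of these 7 genes overlapped between the groups, and neither did 86.1% of all genes tested.

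The HIF genes differed among themselves. Epas1 (chr17:86753700-86833410) encodes HIF-2 alpha, a subunit known from endothelial cells, and was at 26.6, 24.7 and 24.5 FPKM in D5-LSKCD201+ against 3.71, 4.23 and 3.88 in mESC. The log2 fold change was 2.41 ± 0.07 (adjusted p = 1.7e-09). Hif1a, which encodes HIF-1 alpha, differed by 0.27 ± 0.04, which passed the adjusted p (0.00033) and not the fold limit. Hif3a, a subunit with inhibitory forms, was weak at 2.03 ± 0.369 against 0.502 ± 0.0951 FPKM, and its fold of 1.01 ± 0.11 lay on the limit. Without replicate 2 of D5-LSKCD201+ or replicate 1 of mESC it was 0.91 or 0.95 and no longer called. Under quantile normalization it was 0.99, short of the limit, and with a pseudocount of 0.1 it was 1.82. Arnt, the partner of the alpha subunits, was at 13.6 ± 0.731 against 22.026 ± 0.782 FPKM (log2 fold change -0.66 ± 0.06), short of the limit. Egln3, a prolyl hydroxylase that is itself a HIF target, stood at 40.8, 42.3 and 41.2 FPKM against 5.34, 5.15 and 5.02, a log2 fold change of 2.78 ± 0.05. Egln1, the main oxygen sensor of the family, was higher by 1.81 ± 0.09 (9.65 ± 0.991 against 2.04 ± 0.175 FPKM).

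In glycolysis the differences were uneven along the pathway. Pfkfb3 makes the activator of phosphofructokinase and was at 15.4 ± 1.57 against 0.984 ± 0.0160 FPKM (log2 fold change 3.05 ± 0.08). Hk1, the widely expressed hexokinase, was at 60.6 ± 0.712 against 10.1 ± 0.615 FPKM (2.47 ± 0.05), while Hk2, the inducible form, was at 13.5 ± 0.124 against 23.4 ± 1.07. Tpi1, triosephosphate isomerase, was higher by 1.96 ± 0.03, Pgk1, phosphoglycerate kinase, by 1.43 ± 0.03, and Pfkl, the liver type of phosphofructokinase, by 1.08 ± 0.04. Both glucose transporters passed the adjusted p and stayed under the fold limit, Slc2a1 at 0.54 ± 0.04 and Slc2a3 at 0.46 ± 0.05. So did Eno1, Eno3, Gapdh and Pkm in the other direction, with -0.58, -0.60, -0.30 and -0.17. Under quantile normalization Gapdh was at -0.15 and Pkm turned to 0.057 (limma adjusted p = 0.27).

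Lactate handling showed a split within each gene pair. Ldha, the subunit that favors lactate, was at 2126, 2215 and 2183 FPKM in D5-LSKCD201+ against 837, 826 and 825 in mESC (log2 fold change 1.39 ± 0.03). Ldhb, the subunit that favors pyruvate (chr6:142490249-142507957), was at 14.2, 15.001 and 16.7 FPKM against 231, 213 and 215, a log2 fold change of -3.76 ± 0.06 (adjusted p = 7.8e-11). Slc16a3, encoding the lactate exporter MCT4 (chr11:120948480-120960868), was higher by 2.41 ± 0.04. Slc16a1, encoding the transporter MCT1 (chr3:104638668-104658462), was lower, with a log2 fold change of -1.51 ± 0.05 (22.2, 23.2 and 23.7 FPKM against 63.0, 67.9 and 71.6). Of the pyruvate dehydrogenase kinases, Pdk4 alone was called, at 5.17 ± 0.269 against 1.88 ± 0.214 FPKM (1.10 ± 0.08), and under quantile normalization its fold was 0.99, short of the limit.

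**Figure D2:**
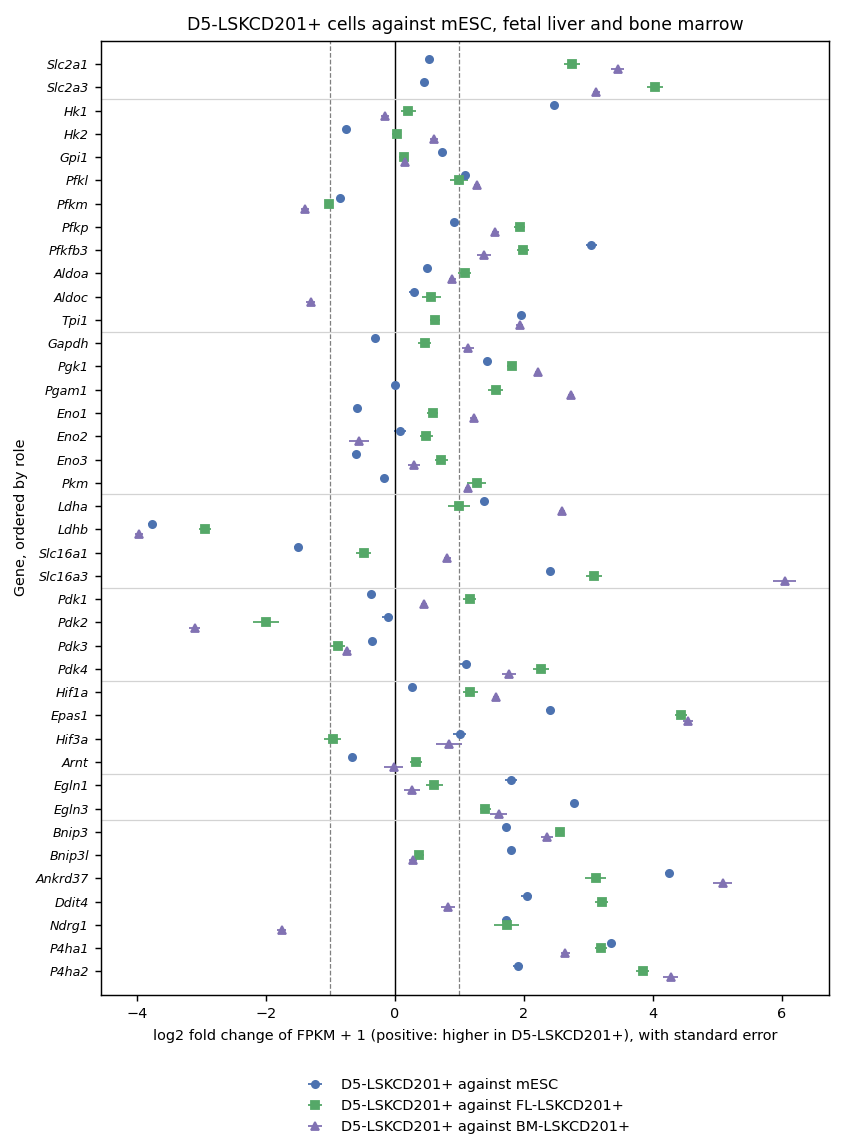
Points give the log2 fold change of FPKM + 1 with its standard error for D5-LSKCD201+ against mESC, FL-LSKCD201+ and BM-LSKCD201+, 3 libraries a group, with dashed lines at the fold limit of 1 in either direction. The comparisons share the D5-LSKCD201+ libraries, Ldhb lay between -3.97 and -2.95 in them, and Ankrd37 between 3.11 and 5.09.

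D5-LSKCD201- cells were compared with the same mESC libraries. Here 19 of the 39 genes tested were higher and 0 lower, against 10.9% and 3.48% of all 13596 genes. At an unadjusted p under 0.05 in limma, and also by the adjusted p without the fold limit, 4 were lower (Epas1, Arnt, Pdk1 and Hif1a), against 25.1% and 22.4% of all genes. The median was 1.19 over the 39 genes and 0.05 over all genes tested. Hif3a, at 0.404 ± 0.264 FPKM, was too weak to be tested. Of 10 markers tested in each list, 8 endothelial and 8 stromal markers were higher and 2 pluripotency markers lower. Higher too were 4 of 7 erythroid markers tested (median 1.47) and 2 of 3 hepatocyte markers. The part of all these markers' cells was not tested.

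Ndrg1 had the largest fold, at 36.0, 39.7 and 36.6 FPKM against 3.32, 2.84 and 3.41 (log2 fold change 3.20 ± 0.09, adjusted p = 5.6e-07). P4ha1 (2.73 ± 0.07), Slc16a3 (2.70 ± 0.18), Pfkfb3 (2.63 ± 0.10), Ankrd37 (2.58 ± 0.10) and Bnip3 (2.56 ± 0.10) followed. All 4 genes of lactate handling were higher, including Slc16a1 at 304, 312 and 295 FPKM against 63.0, 67.9 and 71.6 in mESC (2.16 ± 0.06) and Ldhb at 467, 570.1 and 478 against 231, 213 and 215 (1.19 ± 0.09). Slc16a3 was at 390.2, 245 and 413 FPKM, with replicate 2 lowest, and every value was above mESC. Pfkp, the platelet type of phosphofructokinase, was at 116 ± 5.59 against 30.8 ± 2.30 FPKM, and Slc2a3, encoding the high-affinity transporter GLUT3, at 582 ± 34.0 against 244 ± 8.77. Aldoc, the brain type of aldolase, and Tpi1 were higher by 1.69 ± 0.11 and 2.03 ± 0.04.

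Some values turned on replicate 2 of D5-LSKCD201-. Ddit4 was at 17.4, 2.53 and 20.0 FPKM in D5-LSKCD201- and was not called with all libraries. In one fit over all 5 sorted groups it was called at 1.21 (limma adjusted p = 0.039). Without replicate 2 its log2 fold change against mESC was 2.04, with a limma adjusted p of 1.1e-06. Hk1 was at 22.5, 9.38 and 22.2 FPKM and was called without replicate 2 (1.07). Epas1 was at 2.21, 0.544 and 2.29 FPKM, all below the 3 mESC values, and its log2 fold change of -0.96 ± 0.28 was -0.60 without replicate 2, and -1.13 and -1.15, past the limit, without replicate 1 or 3.

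The next comparison was between the day 5 fractions, which share the culture, the strain label and the LSK gate and differ in CD201. In D5-LSKCD201+, 4 of the 40 genes were higher and 7 were lower, against 10.8% and 13.9% of all 13691 genes tested, so the shares were near the background. The median was -0.26 over the 40 genes and -0.12 over all. Higher were Epas1, Hk1, Ankrd37 and Hif3a, and lower were Ldhb, Slc16a1, Ndrg1, Eno3, Hk2, Aldoc and Eno1.

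Ldhb was at 14.2, 15.001 and 16.7 FPKM in D5-LSKCD201+ and at 467, 570.1 and 478 in D5-LSKCD201- (log2 fold change -4.95 ± 0.09, adjusted p = 6e-08). Slc16a1 was at 22.2, 23.2 and 23.7 FPKM against 304, 312 and 295 (-3.66 ± 0.05, adjusted p = 3.3e-08). The groups lay far apart in both genes, and closer in their partners. Ldha was at 2175 ± 45.1 against 3080.5 ± 231 FPKM (-0.50 ± 0.07), and Slc16a3, at 279.8 ± 4.07 against 349.6 ± 91.1, overlapped between the groups. Epas1 showed the largest difference upward, with 26.6, 24.7 and 24.5 FPKM against 2.21, 0.544 and 2.29 (3.37 ± 0.28, adjusted p = 3.9e-05). Ankrd37 was higher by 1.67 ± 0.09 and Hk1 (chr10:62268855-62379908) by 1.79 ± 0.30, the latter with replicate 2 of D5-LSKCD201- lowest. Hk2 went the other way, at 13.5 ± 0.124 against 39.3 ± 9.33 FPKM (-1.45 ± 0.16). Egln3, at 41.4 ± 0.754 against 20.6 ± 2.93 FPKM, was just short of the fold limit with 0.98 ± 0.10, as was Pfkp with -0.96 ± 0.06.

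Without replicate 2 of D5-LSKCD201-, Eno1 (-0.98) and Hif3a (0.97) no longer passed the fold limit and Egln3 (1.09) passed it. Marker genes also parted these fractions. All 10 naive pluripotency markers were lower in D5-LSKCD201+, with summed FPKM of 23.4 to 32.0 against 3409.5 to 3876, and Pou5f1, which encodes OCT4, was at 2.34 ± 0.494 against 221 ± 57.1. Of 10 endothelial markers, 9 were higher, with sums of 1948 to 1989.7 against 167 to 185. Erythroid markers were lower in 5 and higher in 1 of 9 tested (median -1.03), and stromal markers higher in 3 and lower in 1 of 11. Proliferation markers were lower by the adjusted p in 8 of 10 (median -0.77), with 1 past the fold limit. The part of these markers' cells in the differences of glycolytic genes was not tested. In bulk RNA, fewer cells of a type and less RNA per cell cannot be told apart.

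**Figure D3:**
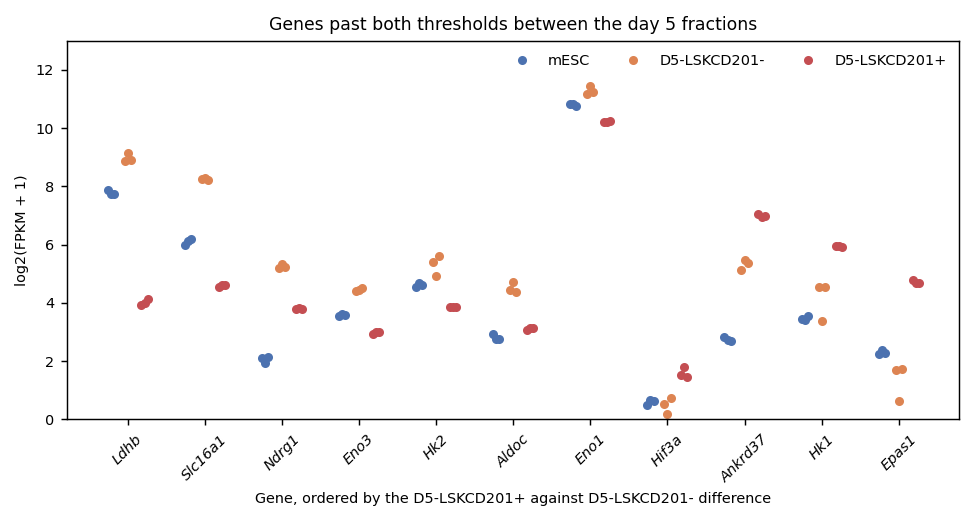
Dots give log2(FPKM + 1) of each library for the 11 genes called between D5-LSKCD201+ and D5-LSKCD201-, with mESC beside them. For Ldhb and Slc16a1 the mESC libraries lay between the day 5 fractions, and for Epas1 both mESC and D5-LSKCD201- lay below D5-LSKCD201+.

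D5-LSKCD201+ cells were then set against the natural cells of the same surface phenotype. Against FL-LSKCD201+, 20 of 40 genes were higher and 3 lower, beside 15.1% and 19.6% of all 13627 genes tested. Against BM-LSKCD201+, 21 were higher and 5 lower, beside 17.5% and 27.2% of all 13775. The medians over the 40 genes were 1.04 and 1.14, while those over all genes were -0.16 and -0.23. Both comparisons share the D5-LSKCD201+ libraries, so each gene is given with both values, fetal liver first.

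Both glucose transporters were far higher in D5-LSKCD201+. Slc2a1, encoding GLUT1 (chr4:119108711-119137983), was at 439, 484 and 449 FPKM in D5-LSKCD201+, at 80.2, 60.8 and 62.0 in FL-LSKCD201+ and at 34.4, 43.8 and 44.8 in BM-LSKCD201+. The log2 fold changes were 2.75 ± 0.12 and 3.46 ± 0.10. Slc2a3 was at 316, 351 and 339.9 FPKM against 23.3, 17.9 and 17.8 in fetal liver and 38.6, 36.6 and 37.6 in bone marrow (4.04 ± 0.12 and 3.12 ± 0.05). Hk1, in contrast, was at 60.6 ± 0.712 FPKM in D5-LSKCD201+, 52.6 ± 8.29 in FL-LSKCD201+ and 67.5 ± 4.99 in BM-LSKCD201+, and was not called against either. Gpi1, glucose-6-phosphate isomerase, was also close in the 3 groups (295 ± 3.46, 269 ± 15.4 and 265 ± 5.31 FPKM).

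The lactate exporter gene Slc16a3 differed more from bone marrow than from fetal liver. It was at 277, 278 and 285 FPKM in D5-LSKCD201+, at 39.1, 28.5 and 29.6 in FL-LSKCD201+ and at 2.08, 3.88 and 4.08 in BM-LSKCD201+. The log2 fold changes were 3.09 ± 0.12 (adjusted p = 1.2e-06) and 6.05 ± 0.18 (adjusted p = 6e-08). On the log2(FPKM + 1) scale the latter was the largest among the 40 genes in the 7 comparisons. That rank depends on the scale, since Epas1 and P4ha2 against BM-LSKCD201+ were at 6.84 and 6.59 with a pseudocount of 0.1. Ldha was higher than in bone marrow by 2.60 ± 0.05, and its fold against fetal liver (0.997 ± 0.17) lay on the limit, with 1.18 without replicate 1 of FL-LSKCD201+ and 1.63 under quantile normalization. Ldhb was at 14.2, 15.001 and 16.7 FPKM against 116, 135 and 124 in fetal liver and 244, 262 and 257 in bone marrow, log2 fold changes of -2.95 ± 0.09 and -3.97 ± 0.07. D5-LSKCD201+ was the lowest of the 5 sorted groups for Ldhb.

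Among the other enzymes, Pfkp was higher by 1.94 ± 0.09 and 1.56 ± 0.05, Pgk1 by 1.81 ± 0.07 and 2.21 ± 0.04, Pgam1, phosphoglycerate mutase, by 1.56 ± 0.11 and 2.74 ± 0.05, and Pkm, pyruvate kinase, by 1.27 ± 0.15 and 1.14 ± 0.05. Pfkm, the muscle type of phosphofructokinase, was lower in both (10.5 ± 0.134 FPKM against 22.5 ± 0.743 and 29.3 ± 1.71). Its fold of -1.02 ± 0.07 against fetal liver lay on the limit and was short of it without replicate 1 of FL-LSKCD201+ and under quantile normalization (-0.94). Pfkl was higher by 1.28 ± 0.05 than in bone marrow, and by 0.997 ± 0.15 than in fetal liver, on the limit, with 1.17 without replicate 1 of FL-LSKCD201+. Pdk2, a widely expressed pyruvate dehydrogenase kinase, was at 2.95, 3.21 and 3.60 FPKM against 22.5, 13.3 and 13.5 and 33.0, 35.2 and 38.1, log2 fold changes of -1.998 ± 0.20 and -3.10 ± 0.09. Pdk4 was higher by 2.26 ± 0.12 and 1.77 ± 0.11. Aldoc and Ndrg1 were lower than in bone marrow (-1.31 ± 0.06 and -1.76 ± 0.07), whereas Ndrg1 was higher than in fetal liver (1.73 ± 0.20) and Aldoc was at 7.65 ± 0.243 against 4.92 ± 1.21 FPKM there.

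HIF genes and their targets differed in both directions. Epas1, at 26.6, 24.7 and 24.5 FPKM, compared with 0.325, 0.177 and 0.135 in FL-LSKCD201+ and 0.0669, 0.170 and 0.141 in BM-LSKCD201+ (4.44 ± 0.09 and 4.54 ± 0.08), so both natural cells were near 0. Hif1a was higher by 1.17 ± 0.12 and 1.57 ± 0.05, at 45.7 ± 0.876 FPKM against 19.9 ± 3.24 and 14.8 ± 0.0592. Hif3a, at 1.87, 2.45 and 1.76 FPKM, was below all 3 libraries of FL-LSKCD201+ (5.67, 4.45 and 4.56), with a log2 fold change of -0.96 ± 0.13 (limma adjusted p = 0.00044), short of the limit. It was past it under 5 alternatives, from -1.001 without replicate 3 of FL-LSKCD201+ to -1.24 with a pseudocount of 0.1. Against bone marrow Hif3a differed by 0.84 ± 0.20, with 1.14 under quantile normalization and 1.56 with a pseudocount of 0.1. Ankrd37 was higher by 3.11 ± 0.17 and 5.09 ± 0.15, P4ha1 by 3.20 ± 0.09 and 2.65 ± 0.08, and Bnip3 by 2.56 ± 0.06 and 2.36 ± 0.09. P4ha2 was at 21.5 ± 1.06 FPKM and under 1 FPKM in every library of both natural groups. Bnip3l, at 121 ± 4.31 against 92.5 ± 5.35 and 99.0 ± 5.82 FPKM, stayed short of the fold limit in both.

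Markers of other cell types moved with these comparisons. The endothelial marker sum was 1948 to 1989.7 FPKM in D5-LSKCD201+, 167 to 210.2 in FL-LSKCD201+ and 143 to 148 in BM-LSKCD201+, all 10 endothelial markers were higher in D5-LSKCD201+ in both comparisons, and Cdh5, encoding VE-cadherin, was at 70.8 ± 3.02, 1.13 ± 0.441 and 0.0359 ± 0.0328 FPKM. The erythroid marker sum was 5016 to 10984 FPKM in FL-LSKCD201+ and 51.8 to 73.9 in D5-LSKCD201+. Against FL-LSKCD201+, 10 of 10 myeloid markers tested (median -7.49) and 7 of 7 hepatocyte markers (median -4.57) were lower. Against BM-LSKCD201+, 7 of 8 myeloid markers were lower (median -4.45) and 7 of 10 proliferation markers higher (median 2.18). Markers of the stem cell sort were lower there in 7 of 8 (median -1.57). Of 10 housekeeping genes, 6 were lower and 1 higher against BM-LSKCD201+ (median -1.31), and 4 lower against FL-LSKCD201+ (median -0.58). Stromal markers were higher against both (7 and 8 of 9). The part of these markers' cells in the differences was not tested. Reads may be shared with near-identical copies in 4 of the genes, which was not tested. Eno1b, the copy of Eno1, was at 719 to 750.1 FPKM in D5-LSKCD201+, 1154 to 1166 in mESC and 1422 to 1701 in D5-LSKCD201-, all labelled 129/ola, but at 4.60 to 10.7 in the C57BL/6 cells. Summed with its copy, Eno1 came to 1925 ± 27.2 FPKM in D5-LSKCD201+, 803 ± 33.4 in FL-LSKCD201+ and 519.7 ± 34.5 in BM-LSKCD201+, where Eno1 alone was at 1195 ± 10.1, 793 ± 32.9 and 512 ± 31.7. The copies of Gapdh, Pgk1 and Pgam1 took on average 3.69% to 18.9% of the sum with their gene, so values of these 4 genes are uncertain. A single copy of each gene was looked at, so these shares do not bound the uncertainty.

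FL-LSKCD201+ and BM-LSKCD201+ share the strain and the sort, and were compared with each other. Of 38 genes tested, 7 were higher and 6 lower in fetal liver, against 7.78% and 11.3% of all 13503 genes. The median was -0.16 over these genes and -0.13 over all, and under quantile normalization -0.06 and -0.02. Slc16a3 (32.4 ± 5.84 against 3.35 ± 1.10 FPKM) was higher by 2.96 ± 0.22, Ankrd37 by 1.97 ± 0.22, Hif3a by 1.81 ± 0.21 and Ldha by 1.60 ± 0.17. Tpi1, Slc16a1 and Pgam1 were higher by 1.31, 1.298 and 1.17. Hif3a was at 5.67, 4.45 and 4.56 FPKM in fetal liver against 0.222, 0.888 and 1.05 in bone marrow. Slc2a3 differed by -0.91 ± 0.12, short of the limit, and by -1.04 without replicate 1 of FL-LSKCD201+.

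Ndrg1 was at 4.82, 2.48 and 2.58 FPKM in fetal liver and at 42.1, 46.8 and 48.8 in bone marrow, a log2 fold change of -3.49 ± 0.20 (adjusted p = 1.5e-05). Ddit4 followed with -2.39 ± 0.14 and Aldoc with -1.87 ± 0.16. Pdk2 (-1.10 ± 0.20), Eno2 (-1.04 ± 0.16), the neuronal enolase, and Ldhb (-1.02 ± 0.10) were lower by little more than the fold limit, and each was short of it with a library left out. Ldhb was at -0.97 without replicate 1 of FL-LSKCD201+, Pdk2 at -0.98 and -0.99 without its replicate 2 or 3, and Eno2 at -0.96 and -0.95 without replicate 2 or 3 of BM-LSKCD201+. Replicate 1 of FL-LSKCD201+ had an erythroid marker sum of 5016 FPKM against 10984 and 10105 in the others, and it held the highest value of its group for 23 of the 40 genes, beside 45.6% of all genes, among them Ldha (1402 against 964 and 954 FPKM). Besides 11 of 11 erythroid markers, 7 of 7 hepatocyte (median 4.56), 9 of 10 proliferation (median 2.16) and 7 of 10 myeloid markers (median 2.59) were higher in FL-LSKCD201+ than in BM-LSKCD201+. The part of these cell types in the fetal liver values was not tested. Epas1 and P4ha2 were too weak to be tested here.

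The share of one member in a family's summed FPKM does not depend on how libraries are scaled. Hk1 made up 81.8% ± 0.279 of Hk1 plus Hk2 in D5-LSKCD201+, 79.8% ± 2.66 in FL-LSKCD201+ and 88.9% ± 0.276 in BM-LSKCD201+, but 30.5% ± 5.54 in D5-LSKCD201- and 30.2% ± 1.71 in mESC (SD, n = 3 each). Slc2a1 made up 57.7% ± 0.664 of Slc2a1 plus Slc2a3 in D5-LSKCD201+, closest to mESC (56.3% ± 1.69), against 52.0% ± 4.23 in BM-LSKCD201+, 43.0% ± 1.11 in D5-LSKCD201- and 77.5% ± 0.197 in FL-LSKCD201+. Of the 3 phosphofructokinases, Pfkl took 71.8% ± 0.324 in D5-LSKCD201+, 70.3% ± 4.63 in FL-LSKCD201+, 63.6% ± 1.94 in D5-LSKCD201-, 62.3% ± 0.830 in mESC and 59.8% ± 2.15 in BM-LSKCD201+. Pfkm took 4.26% ± 0.0791 in D5-LSKCD201+, near D5-LSKCD201- (5.10% ± 0.0993) and below mESC (14.8% ± 0.478), FL-LSKCD201+ (17.9% ± 1.97) and BM-LSKCD201+ (24.1% ± 1.44). Pfkp took 23.9% ± 0.366, near mESC (22.9% ± 0.702), against 31.3% ± 1.91 in D5-LSKCD201-, 16.031% ± 0.753 in BM-LSKCD201+ and 11.9% ± 2.66 in FL-LSKCD201+. The nearest group thus differed from one gene to another. Ldhb made up 0.699% ± 0.0521 of Ldha plus Ldhb in D5-LSKCD201+, 10.5% ± 2.51 in FL-LSKCD201+, 14.1% ± 0.437 in D5-LSKCD201-, 20.9% ± 0.636 in mESC and 41.5% ± 0.355 in BM-LSKCD201+. Slc16a1 made up 7.61% ± 0.175 of Slc16a1 plus Slc16a3 in D5-LSKCD201+, against 47.1% ± 7.76 in D5-LSKCD201-, 50.4% ± 0.464 in FL-LSKCD201+, 56.5% ± 2.30 in mESC and 79.3% ± 5.94 in BM-LSKCD201+. Pdk2 held 3.12% ± 0.259 of the 4 kinases in D5-LSKCD201+, 3.03% ± 0.609 in D5-LSKCD201-, 2.79% ± 0.138 in mESC, 15.2% ± 2.06 in FL-LSKCD201+ and 25.8% ± 1.45 in BM-LSKCD201+. Epas1 held 34.6% ± 1.45 of the 3 HIF alpha genes in D5-LSKCD201+, 9.35% ± 0.669 in mESC, 5.46% ± 3.21 in D5-LSKCD201-, 0.830% ± 0.275 in FL-LSKCD201+ and 0.801% ± 0.324 in BM-LSKCD201+. These shares are descriptions and were not tested.

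**Figure D4:**
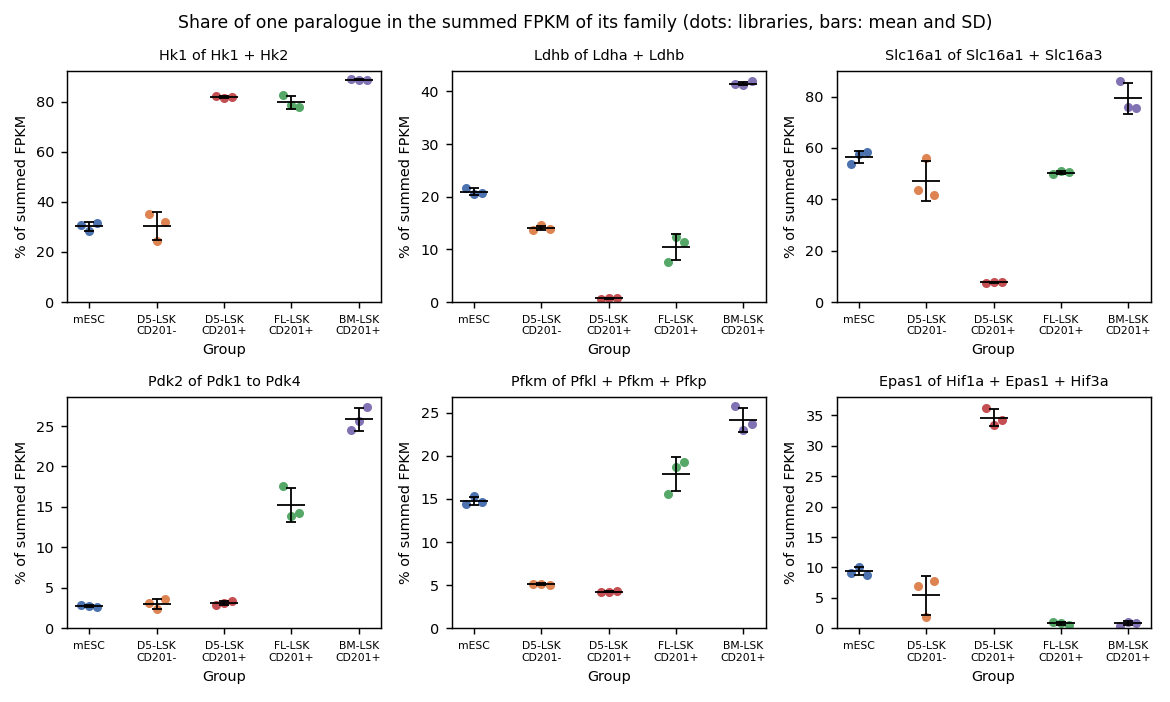
Each panel gives the percentage of a family's summed FPKM held by one gene, per library (dots), with mean and SD (bars), in the 5 sorted groups. Hk1 took a share of 81.8% ± 0.279 in D5-LSKCD201+ and 79.8% ± 2.66 in FL-LSKCD201+, whereas the shares of Ldhb and Slc16a1 were lowest and that of Epas1 was highest in D5-LSKCD201+.

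In total cells of the day 5 cultures, 1 of the 40 genes was higher in 3D+OP9 than in 3D+0.1%gel and 0 were lower, against 2.11% and 0.509% of all 12958 genes tested. At an unadjusted p under 0.05 in limma, 7 were higher and 0 lower, against 13.2% and 9.77% of all genes. The gene called was Pfkp (chr13:6579768-6648777), at 53.7, 52.2 and 88.2 FPKM in 3D+OP9 against 30.7, 13.8 and 15.9 (log2 fold change 1.68 ± 0.31, adjusted p = 0.021). The call was lost with adjusted p of 0.052 and 0.051 without replicate 1 or 2 of 3D+OP9, and of 0.097 and 0.076 without replicate 2 or 3 of 3D+0.1%gel. The log2 fold changes there were 1.79 and 1.81, and 1.46 and 1.56. In 32 of 40 genes the mean was higher in 3D+OP9, a count that was not made over all genes. The median log2 fold change was 0.35 over the 40 genes against 0.01 over all genes.

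Single libraries stood high in both groups. Replicate 1 of 3D+0.1%gel was the highest of its 3 libraries for 32 of the 40 genes, while it was highest for 29.2% of all genes. Its Slc2a3 was at 602 FPKM against 256 and 243, its Egln1 at 67.2 against 22.6 and 20.1, and its Ndrg1 at 34.4 against 14.9 and 9.83. Replicate 3 of 3D+OP9 was highest for 35 genes, beside 47.9% of all genes, with Egln3 at 49.9 FPKM against 19.9 and 16.3 and Bnip3 at 175 against 80.8 and 69.8. Without replicate 1 of 3D+0.1%gel, 5 genes were called higher in 3D+OP9 by limma, against 2.03% of all genes under the same setting. They were Pfkp, Aldoc (1.68, adjusted p = 0.0058), Pgk1 (1.11, adjusted p = 0.0058), Egln1 (1.11, adjusted p = 0.021) and Ndrg1 (1.04, adjusted p = 0.039). Each library was left out in turn, and this setting is described because that library was seen to be high in these genes. Its own value was above the 3D+OP9 mean for 23 of the 40 genes, which was likewise not counted over all genes.

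Total cells of 3D+OP9 can include the stromal cells themselves. The stromal marker sum was 85.3 to 97.9 FPKM in 3D+OP9 and 50.2 to 61.1 in 3D+0.1%gel, and 4 of 11 stromal markers tested were higher. Endothelial markers were higher too (8 of 10, with Cdh5 at 28.5 ± 3.38 against 1.73 ± 0.965 FPKM), as were 7 of 10 erythroid markers tested, with sums of 269 to 834 against 49.8 to 62.6 FPKM. Of 10 naive pluripotency markers, 4 were higher, led by Esrrb (33.1 ± 11.4 against 2.08 ± 0.0964 FPKM). In the other direction 2 passed the adjusted p, short of the fold limit. These were Pou5f1 (388 ± 99.4 against 624 ± 39.6 FPKM) and Nanog (73.3 ± 3.22 against 149 ± 37.5 FPKM). The part of these cells in the values of Pfkp and the other genes was not tested.

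**Figure D5:**
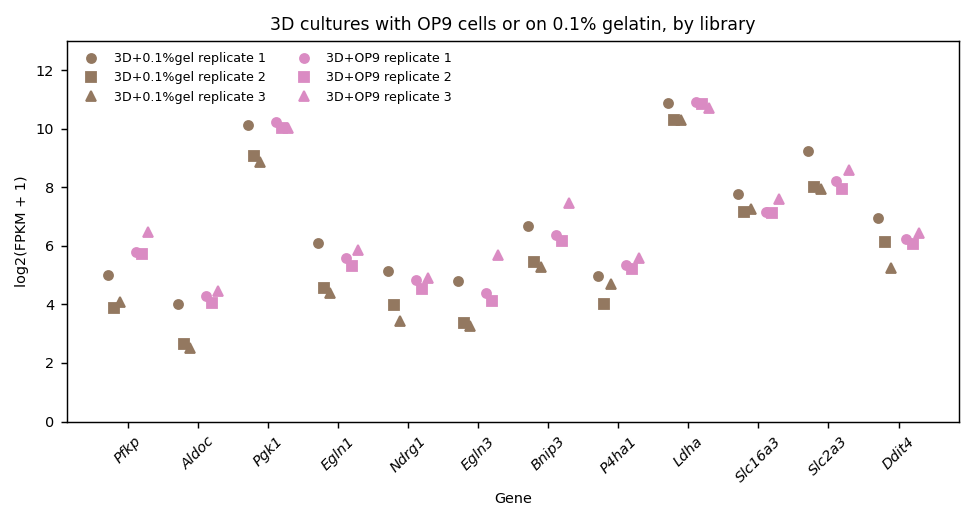
Points give log2(FPKM + 1) by library for 12 of the 40 genes in 3D+0.1%gel and 3D+OP9, with a marker shape for each replicate. The 12 genes were picked by hand and include the 5 called without replicate 1 of 3D+0.1%gel. That replicate lay above the others of its group for all 12, beside 32 of the 40 genes. The groups were apart for Pfkp, Aldoc and P4ha1. Over all 40 genes they were apart for 5, against 28.7% of all genes tested.

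Related genes outside the 40 were read from lists. Of 38 further HIF target genes, 15 were higher and 4 lower of 33 tested against mESC, 18 were higher and 4 lower of 32 tested against FL-LSKCD201+, 14 were higher and 5 lower of 32 tested against BM-LSKCD201+ and 5 were higher and 6 lower of 35 tested against D5-LSKCD201-, always for D5-LSKCD201+. The shares over all genes are those given with each comparison, and against D5-LSKCD201- the list was near them. Nos3, endothelial nitric oxide synthase, was at 117 ± 1.66 FPKM in D5-LSKCD201+, 3.26 ± 1.40 in D5-LSKCD201-, 1.53 ± 0.221 in mESC and 0.0606 ± 0.0708 in BM-LSKCD201+. Adm, adrenomedullin, a vasodilator peptide, was at 65.4 ± 5.27, 11.6 ± 3.55, 0.921 ± 0.318 and 0.797 ± 0.192 FPKM in the same order. Both are known from blood vessel cells, and Nos3 is also among the endothelial markers counted above.

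Of 35 further genes of glycolysis and pyruvate metabolism, 5 were higher and 3 lower of 25 tested against mESC, 3 were higher and 7 lower of 28 tested against FL-LSKCD201+, 6 were higher and 8 lower of 25 tested against BM-LSKCD201+ and 2 were higher and 5 lower of 26 tested against D5-LSKCD201-. Over all genes tested, 19.5% were higher and 18.1% lower against mESC, and 15.1% and 19.6% against FL-LSKCD201+. The shares were 17.5% and 27.2% against BM-LSKCD201+, and 10.8% and 13.9% against D5-LSKCD201-. Several counts of this and the following lists lay near these shares. Tigar, a brake on glycolysis, was at 4.27 ± 0.273 FPKM in D5-LSKCD201+ against 34.4 ± 2.54 in mESC and 25.7 ± 2.22 in D5-LSKCD201-. Hk3, a hexokinase of myeloid cells, was at 0.0457 ± 0.0346 FPKM against 31.1 ± 0.299 in BM-LSKCD201+. Of 17 further regulators of the HIF pathway, 4 were higher and 1 lower of 14 tested against mESC, 0 were higher and 7 lower of 14 tested against FL-LSKCD201+, 1 was higher and 7 lower of 14 tested against BM-LSKCD201+ and 0 were higher and 1 lower of 14 tested against D5-LSKCD201-. Cited4, a binding partner of HIF coactivators, was at 0.633 ± 0.157 against 65.6 ± 4.89 FPKM in FL-LSKCD201+. Of 17 genes of the pentose phosphate pathway and glycogen, 5 were higher and 1 lower of 16 tested against mESC, 3 were higher and 3 lower of 17 tested against FL-LSKCD201+, 2 were higher and 5 lower of 17 tested against BM-LSKCD201+ and 2 were higher and 1 lower of 16 tested against D5-LSKCD201-. Pgm2, a phosphoglucomutase, was at 101 ± 4.04 against 10.9 ± 0.745 FPKM in mESC. In 3D+OP9 against 3D+0.1%gel, 1 further HIF target gene (Nos3) and 1 glycogen gene (Pygl, glycogen phosphorylase) were higher, beside 2.11% of all genes. The call of Nos3 is the same as that counted among the endothelial markers there.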

How the data were processed

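RNA-seq was performed on 21 libraries, 3 in each of 7 groups. Per the labels and the study's methods, RNA was extracted with TRIzol, and the submitters' processing notes name HISAT2 2.0.5, StringTie 1.3.3 and Cuffdiff 1.3.0. The authors deposited FPKM per gene in 2 tables, made and normalized separately, one for total cells of the cultures and one for sorted cells. Counts and depth per library are not given in the sources used here, so the precision rests on the spread of 3 libraries.

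FPKM were tested as log2(FPKM + 1) with limma 3.58.1 (trend, two-sided; R 4.3.3), per comparison, with only its 2 groups in the fit, leaving out genes whose mean was below 0.5 FPKM. P-values were adjusted by Benjamini-Hochberg over all genes tested, and genes were called below an adjusted p of 0.05 where the log2 fold change, up or down, was no smaller than 1. Any of the 40 genes could be named, and from each other list at most the 3 with the largest change past both limits. Procr, Ptprc, Pou5f1, Nanog, Cdh5 and the near-identical copies were named after their values were seen. The 40 genes and all lists were chosen with earlier results of these data known. Positions are of GENCODE M21. Alternatives were a pseudocount of 0.1, a filter of 1 FPKM, quantile normalization, other fits, leaving out each library, the adjusted p alone, the replicate number as a block and, chosen after seeing the data, averaging the closest replicates. Deviations of same-numbered libraries correlated above 0.1 in all 3 pairs only for FL-LSKCD201+ and BM-LSKCD201+ (0.167 to 0.248). Replicate 1 stood apart in both of these groups, so this check cannot tell whether the libraries were paired. No source names a shared batch.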

Additional observations from a re-analysis of the deposited data

Results flagged for a closer look

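For 9 of 39 genes tested in all 3 comparisons the difference from mESC had opposite signs in D5-LSKCD201+ and D5-LSKCD201-, with an adjusted p under 0.05 in limma for each and for the difference between the day 5 fractions. The same held for 5.86% of all 12566 genes tested. Both differences use the same mESC libraries, and the test is that between the fractions. On the log2(FPKM + 1) scale, the values, D5-LSKCD201+ first, were -3.76 and 1.19 for Ldhb, a difference of -4.95 (adjusted p = 6.0e-08). Slc16a1 was at -1.51 and 2.16, a difference of -3.66 (adjusted p = 3.3e-08). Epas1 was at 2.41 and -0.96, a difference of 3.37 (adjusted p = 3.9e-05). Hk2 was at -0.76 and 0.70, a difference of -1.45, and Eno3 was at -0.60 and 0.87, a difference of -1.46. Eno1, whose reads may be shared with Eno1b, was at -0.58 and 0.48, a difference of -1.06. Smaller differences were -0.61 for Gapdh (-0.30 and 0.30), -0.67 for Pkm (-0.17 and 0.50) and 0.66 for Hif1a (0.27 and -0.39). Under quantile normalization Pkm in D5-LSKCD201+ against mESC turned to 0.057 (limma adjusted p = 0.27), so that its signs were no longer opposite, and Gapdh there moved to -0.15. Pluripotency and endothelial markers parted the same libraries, and their part was not tested.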

How the results depend on the processing

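Alternatives gave 2830 values for the 205 gene differences that passed the adjusted p in the main fit. Differences that had not passed it were left out, so this count cannot show a gain of the adjusted p. Of the 2830 values, 2751 kept their direction and side of the adjusted p, and 77 kept the direction and lost the adjusted p. The other 2 reversed, both under quantile normalization, Gpi1 between the day 5 fractions (0.0089, from -0.15) and Pkm in D5-LSKCD201+ against mESC (0.057, from -0.17). Gapdh in the latter moved from -0.30 to -0.15. This count does not follow the fold limit. Under quantile normalization, calls were lost by the fold for Eno1 between the day 5 fractions (-0.95), Pdk4 and Hif3a in D5-LSKCD201+ against mESC (both 0.99), Pfkm in D5-LSKCD201+ against FL-LSKCD201+ (-0.94), and Eno2 and Pdk2 between the natural cells (-0.95 and -0.98). Calls were gained for Ldha against FL-LSKCD201+ (1.63) and for Aldoa (1.38), Hif3a (1.14), Ddit4 (1.07) and Slc16a1 (1.03) against BM-LSKCD201+. A pseudocount of 0.1 moved 7 called values by over 1.5 times, all away from 0, Hif3a to 2.22 between the day 5 fractions, 1.82 in D5-LSKCD201+ against mESC and 2.80 between the natural cells, Eno2 to -1.71 between the natural cells, Pdk4 to 3.86 against FL-LSKCD201+, and Epas1 and P4ha2 to 6.84 and 6.59 against BM-LSKCD201+, and Pdk4 was called between the natural cells (-1.30). Quantile normalization moved the median over all genes from -0.12 to -0.01 between the day 5 fractions, from -0.07 to -0.13 in D5-LSKCD201+ against mESC, from 0.05 to -0.10 in D5-LSKCD201- against mESC, from -0.16 to -0.05 and from -0.23 to -0.02 in D5-LSKCD201+ against FL-LSKCD201+ and BM-LSKCD201+, and from -0.13 to -0.02 between the natural cells. By the adjusted p alone, with the share of all genes in parentheses, 11 genes were higher (28.7%) and 20 lower (39.6%) between the day 5 fractions, 26 (40.3%) and 11 (45.2%) in D5-LSKCD201+ against mESC, 29 (32.2%) and 4 (22.4%) in D5-LSKCD201- against mESC, 31 (30.1%) and 6 (42.0%) in D5-LSKCD201+ against the fetal liver cells, 30 (34.2%) and 8 (49.2%) in D5-LSKCD201+ against the bone marrow cells, 13 (22.2%) and 15 (32.9%) in FL-LSKCD201+ against BM-LSKCD201+, and 1 (4.61%) and 0 (2.27%) in 3D+OP9 against 3D+0.1%gel. Epas1 gave 1 lower gene in D5-LSKCD201- against mESC with a pseudocount of 0.1, under quantile normalization and with the closest replicates averaged, and leaving out single libraries gave 0 to 1. In 3D+OP9 against 3D+0.1%gel, leaving out single libraries gave 0 to 5 higher genes and averaging the closest replicates 0. With the replicate block the counts were the same in all 7 comparisons, 7 higher and 6 lower in FL-LSKCD201+ against BM-LSKCD201+. Without read counts, the limit set by depth on weak genes such as Hif3a is unknown.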
